A study of Danio rerio with 3 samples.

Results

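The genes described here encode chemokines, chemokine receptors and the SOCS-STAT branch of cytokine signalling in zebrafish (Danio rerio). They were chosen by name, as the probe sets that carried 1 of 10 listed gene symbols and no other. Of the 10 genes 9 are described, namely ccl34b.1, cxcl12a, cxcl12b, cxcr4a, cxcr4b, socs3a, socs3b, stat3 and jak1, read by 10 of the 15617 probe sets on the array. A probe set gathers several short probes against 1 transcript into a single value. The remaining gene has no value here, and 1 probe set annotated to jak1 together with another gene was not used.

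Larvae were profiled at 192 h post-fertilization (hpf) after contact with oil emulsion from the Gulfport shoreline, collected after the Deepwater Horizon blowout. Cups holding 30 embryos and 100 ml of medium were coated with 250 mg of emulsion, which carried alkanes, polynuclear aromatic hydrocarbons, sand and seawater. The early-window larvae were exposed from 0 to 48 hpf and the late-window larvae from 48 to 96 hpf, followed by 144 h and 96 h in clean medium. Control larvae were kept in medium without emulsion. No strain or genotype is given in the labels, and neither is the number of larvae in each RNA sample. Each group was read on 1 array, so no replicate spread exists and every statement below describes these 3 arrays.

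Chemokines are small secreted proteins that steer migrating cells by binding receptors with a bundle of membrane-spanning helices. Cxcl12, also called Sdf1, is the ligand of Cxcr4. In zebrafish this pair guides primordial germ cells and the lateral line primordium, takes part in the patterning of vessels, and retains neutrophils in blood-forming tissue. Cytokine receptors of the interleukin-6 type signal through the kinase Jak1 and the transcription factor Stat3. Stat3 switches on acute-phase genes of the liver and also socs3, whose product binds the receptor and kinase and dampens the signal.

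Values are log2 expression values after RMA, a procedure that puts all arrays on a common intensity distribution. Genes entered the counts only if their value on at least 1 array reached 7.21, the overall median, which left 5492 of 8793 genes. Of the 9 measured genes 7 passed. The other 2, cxcr4a and cxcr4b, stayed under this filter and are given by their values. Differences of at least 1.5-fold, 0.58 on the log2 scale, were counted. A yardstick of technical spread came from 718 genes read by several bright probe sets. Around the mean of their gene these probe sets varied with an SD of 0.11 for the early window minus control, 0.16 for the late window minus control and 0.13 between the windows. This yardstick holds no spread between clutches or RNA samples. Higher and lower mean relative to the bulk of genes on an array. On the early-window array the 18 hybridisation spike-in probe sets, bacterial and phage sequences added before hybridisation, read 0.50 below control, against 0.01 above it on the late-window array. Scaling on the spike-ins would raise every early-window difference by 0.50, so an early-window difference less than 0.50 below control would then lie above it.

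**Figure D1:**
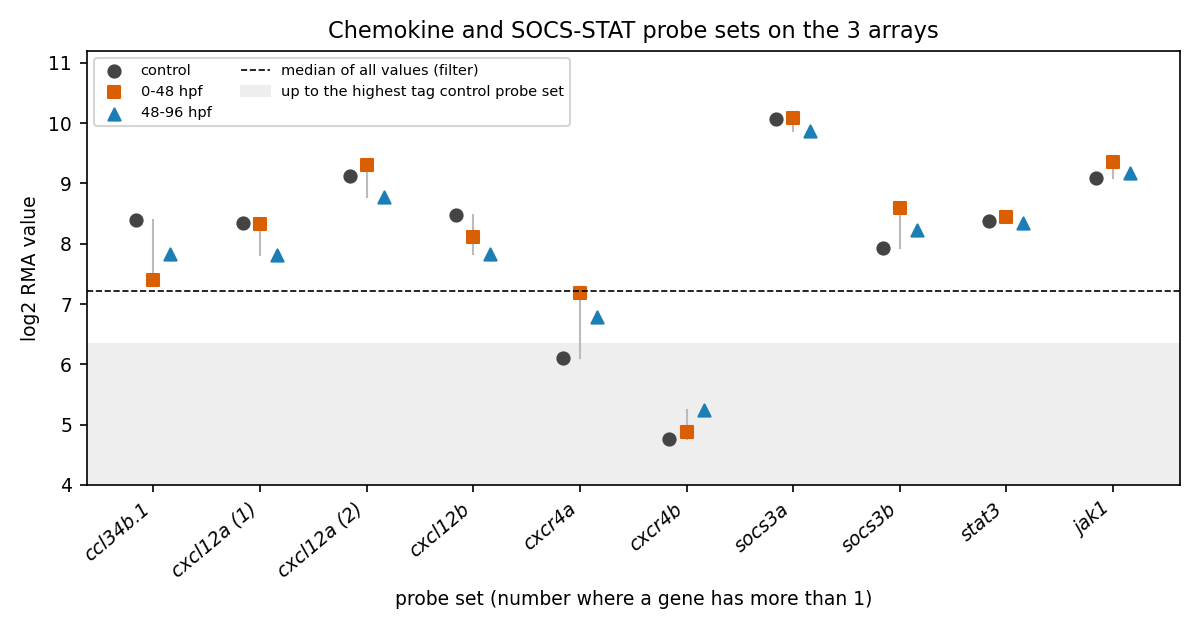
Log2 RMA value (y axis) of each of the 10 probe sets (x axis) on the control (circle), 0-48 hpf (square) and 48-96 hpf (triangle) arrays. The dashed line is the filter at 7.21 and the shaded area reaches up to 6.33, the highest control probe set for a tag sequence. Only cxcr4a and cxcr4b lie below the line on all arrays, and levels can be compared between arrays but not between probe sets.

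The largest difference of a kept member in the early window was that of ccl34b.1, a chemokine of the CC family. Its probe set read 8.39 in control larvae, 7.39 after early and 7.83 after late exposure. Both exposed arrays were thus below control, the early one by nearly 1 log2 unit and the late one by less. The early-window level was 1.998-fold lower than control (log2 difference -0.999), and the late-window level 1.48-fold lower (-0.56). Only 2 other kept genes were lower by at least as much in the early window, and 51 in the late window. Scaled on the spike-ins, ccl34b.1 remained below control in the early window, at -0.50, which no longer reached 1.5-fold.

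The ligand cxcl12a was read by 2 probe sets and its paralog cxcl12b by 1. The cxcl12b probe set read 8.47 on control, 8.11 on the early-window and 7.83 on the late-window array. Control was the highest and the late window the lowest. The late-window level was 1.56-fold lower than control (-0.64), with 23 other kept genes lower by at least as much. Its early-window difference was -0.36, and it turned to 0.14 on the spike-in scale.

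For cxcl12a the brighter probe set read 9.12 on control, 9.31 on the early-window and 8.77 on the late-window array. The other read 8.35, 8.32 and 7.81 in the same order. In both, the late-window array was the lowest, by -0.35 and -0.54 against control and by -0.54 and -0.51 against the early window. Their differences between the early window and control were 0.19 and -0.02, so they disagree in sign there. Scaled on the spike-ins, the brighter one lay 0.69 above control. All 3 probe sets of the Cxcl12 ligands were thus lower on the late-window array than on either other array, under both scalings. The spike-in scale moves every late-minus-early value by -0.51. The share of kept genes lowest on the late-window array was not counted. On the deposited scale 45.4% of kept genes were above control on that array, and 53.7% were lower there than in the early window. Against the early window, cxcl12a was 1.46-fold lower on the brighter probe set and cxcl12b 1.22-fold lower.

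The receptor cxcr4a, which zebrafish vessels express, had the largest early-window difference of the 10 probe sets, at a dim level. It read 6.10 in control larvae, 7.18 after early and 6.78 after late exposure. Control was the lowest, and the early-window array lay 0.03 under the filter. The level was 2.12-fold higher than control in the early window (1.08) and 1.60-fold higher in the late window (0.68). Scaled on the spike-ins, the early-window value was 1.58. Of the kept genes, 5 were higher than control by at least as much in the early window, and 42 in the late window. The 17 control probe sets for tag sequences that are no zebrafish genes reached 5.84 on control, 6.09 on the early-window and 6.33 on the late-window array. The control reading of cxcr4a was thus just above the top of their range on that array. Among 2614 probe sets within 0.5 of its mean level, the SD of the early-window difference was 0.17 and that of the late-window difference 0.24.

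The paralog cxcr4b, the receptor of the migrating lateral line primordium and of neutrophils, read 4.75, 4.87 and 5.25 on the control, early-window and late-window arrays. All of these lie below the highest tag control, and the tag control medians were 4.62, 4.77 and 4.85. Its differences of 0.12 and 0.50 from control are given for completeness and are not read as expression. A shift of a whole array cancels when the differences of 2 genes are set against each other. Measured this way, the difference of cxcr4a from control exceeded that of cxcl12b by 1.44 in the early window and by 1.32 in the late window. Against cxcl12a these values were 0.89 and 1.03.

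The larvae were profiled whole. Fewer cells of a type and less RNA per cell cannot be told apart in these values.

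The inhibitor socs3b was higher than control in the early window. Its probe set read 7.93 in control larvae, 8.59 after early and 8.23 after late exposure. Control was the lowest and the early window the highest. The early-window level was 1.57-fold higher than control (0.65) and the late-window level 1.23-fold higher (0.29). Higher by at least as much were 13 other kept genes in that window, and 337 in the late window. Scaled on the spike-ins, its early-window difference was 1.15.

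Its paralog socs3a read 10.06 on control, 10.09 on the early-window and 9.86 on the late-window array, differences of 0.03 and -0.20. The first lies inside the spread between probe sets of a gene and the second just outside it. The paralogs thus differed from control by unequal amounts. Within the same arrays the difference of socs3b exceeded that of socs3a by 0.63 in the early window and by 0.49 in the late window.

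The transcription factor stat3 read 8.37, 8.45 and 8.34 on the control, early-window and late-window arrays. Its differences of 0.08 and -0.03 were both smaller than the spread between probe sets of a gene. The kinase jak1 read 9.09, 9.36 and 9.17 in the same order, with the early-window array highest by 0.27 and the late-window difference at 0.08. Early on, 206 other kept genes were higher than control by at least as much as jak1. On the spike-in scale stat3 and jak1 would be 0.58 and 0.77 above control in the early window. Free of such a shift, the difference of socs3b exceeded that of stat3 by 0.58 and that of jak1 by 0.39 in that window. Only transcripts were measured, not the phosphorylation that activates Stat3.

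**Figure D2:**
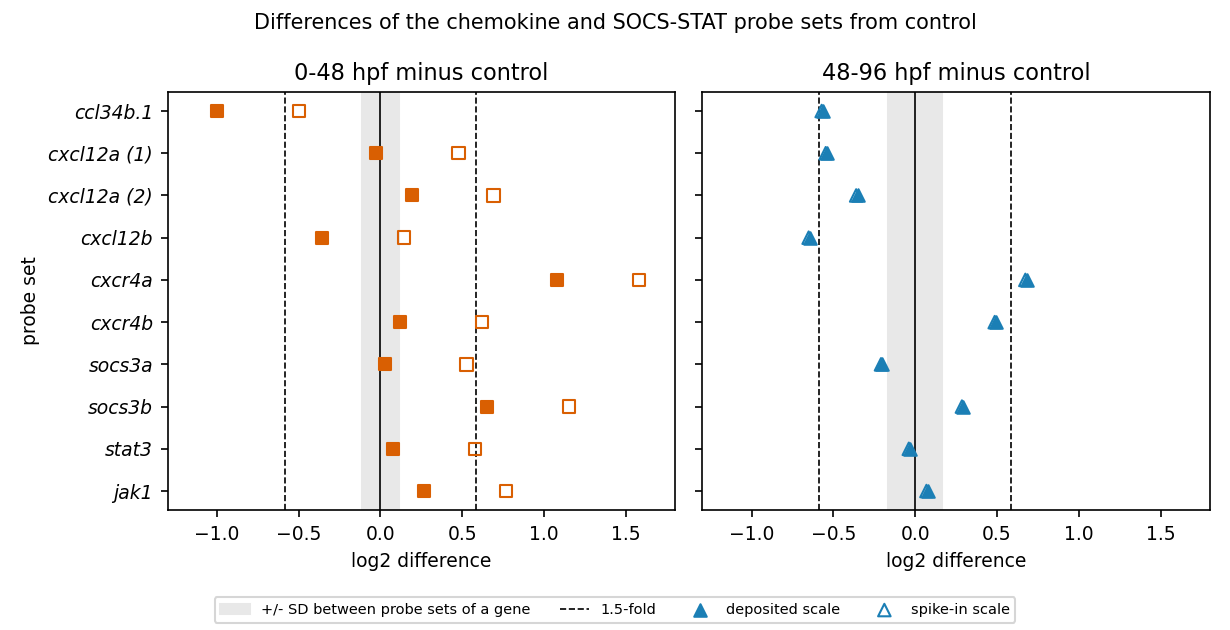
Log2 difference from control (x axis) of each probe set (y axis) for the 0-48 hpf array (left) and the 48-96 hpf array (right). Filled symbols are on the deposited scale and open symbols on the spike-in scale, grey bands are the SD between probe sets of a gene (0.11 and 0.16), and dashed lines mark 1.5-fold. In the left panel ccl34b.1 at -0.999 and cxcr4a at 1.08 lie furthest from 0, and the open symbols sit 0.50 to the right.

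Counted against the whole array, 1 of the 7 kept members was at least 1.5-fold higher than control in the early window (socs3b), where 0.401% of all kept genes were. In the same comparison 1 was at least 1.5-fold lower (ccl34b.1), against 0.601% of kept genes. In the late window 1 was at least 1.5-fold lower (cxcl12b), against 0.674%, and 0 were higher, against 1.11%. None of the 7 reached 2-fold in either direction, as 0.127% of kept genes did in the early and 0.401% in the late comparison. Scaled on the spike-ins, 3 members were at least 1.5-fold higher in the early window (cxcl12a, jak1 and socs3b), 0 were lower, and 1, socs3b, reached 2-fold. The genes had been picked with such values known, so these counts describe them and support nothing further. Without the filter cxcr4a joined them, as at least 1.5-fold higher in both windows, against 0.273% and 0.887% of all 8793 genes.

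Both comparisons share the control array, so a high or low control reading moves both differences together. The exposed arrays set against each other leave it out. Here 6 of the 7 kept members were lower in the late than in the early window, against 53.7% of kept genes, with a median of -0.23. The exception was ccl34b.1, at 0.44 on the deposited and -0.07 on the spike-in scale. The other 6 ranged from -0.54 for cxcl12a to -0.11 for stat3. None reached 1.5-fold in either direction, against 1.22% of kept genes higher and 0.528% lower. On the spike-in scale, where every gene is shifted by -0.51, 6 reached it. The exposed groups differed both in exposure window and in time spent in clean medium, which cannot be told apart in these values.

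**Figure D3:**
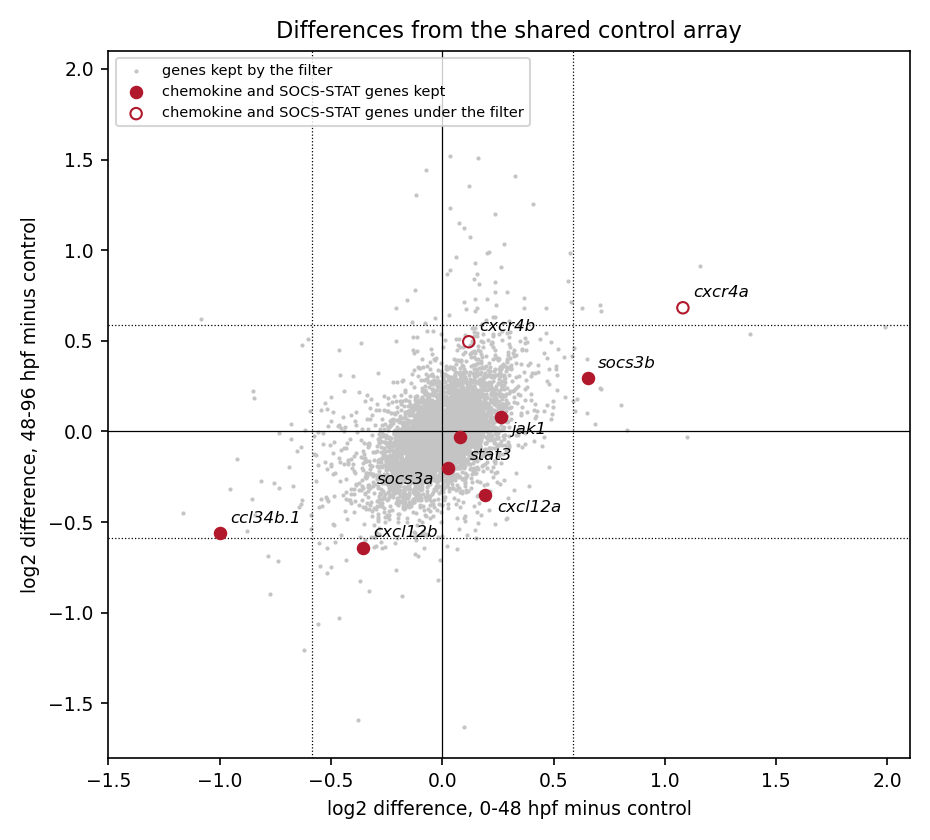
Log2 difference from control in the 0-48 hpf group (x axis) and the 48-96 hpf group (y axis). Grey points are the 5492 kept genes (3 lie outside the axes), filled red points the 7 kept chemokine and SOCS-STAT genes, open red points cxcr4a and cxcr4b, and dotted lines mark 1.5-fold. Both axes subtract the same control array, which by itself draws points along the diagonal. The genes cxcr4a and socs3b lie to the upper right, ccl34b.1 and cxcl12b to the lower left.

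The genes whose pair of differences from control lay nearest to that of a member were looked up among 5249 kept genes, by the straight-line distance between the pairs. With 2 differences per gene this describes likeness over 3 arrays and no more. Nearest to cxcr4a were the matrix metalloproteinases mmp13a (1.16 against control early and 0.92 late, distance 0.24) and mmp9 (1.38 and 0.54, distance 0.34), then npm1b (0.71 and 0.67, distance 0.37). Nearest to socs3b were the fibrinogen chains fga (0.71 and 0.24, distance 0.08) and fgb (0.72 and 0.23, distance 0.09), which belong to the acute-phase genes, and the somatostatin gene sst2 (0.65 and 0.40, distance 0.11). Nearest to ccl34b.1 were inaa, a neuronal intermediate filament (-0.88 and -0.55, distance 0.12), pdca, phosducin of photoreceptors (-0.84 and -0.46, distance 0.19), and the gene with the symbol cell (-1.16 and -0.45, distance 0.20). Nearest to cxcl12b were the sodium channel gene scn8aa (-0.34 and -0.64), trnau1apb (-0.35 and -0.60) and arrdc2 (-0.31 and -0.64), at distances up to 0.05. A second bright probe set of trnau1apb read 0.01 and -0.20.

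Other genes of these pathways were taken from lists. Among chemokine ligands 7 of 9 measured genes were kept, with 5 above control in the early window and 4 in the late window, and medians of 0.13 and 0.14. Of all kept genes 49.6% and 45.4% were above control, with medians of 0.00 and -0.02. Of all 8793 genes, kept or not, 49.1% and 51.9% were. Of the 6 measured ligands other than ccl34b.1, cxcl12a and cxcl12b, 4 were above control in the early window and 5 in the late window, with medians of 0.10 and 0.24. The 4 of them that were kept included ccl44 (0.13 and 0.43), ccl19a.1, a relative of the mammalian ligand of CCR7 (0.08 and 0.32), and cxcl14 (0.17 and 0.14), none of which reached 1.5-fold. Both ccl44 and ccl19a.1 passed the filter only through the exposed arrays. Of 4 measured chemokine receptors 1 was kept, ackr3b, the scavenger receptor that takes up Cxcl12, added here outside the naming rule to complete the list. It read 7.53 on control, 7.68 on the early-window and 7.79 on the late-window array, differences of 0.14 and 0.25.

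Upstream of the Jak kinases, 5 of 10 measured cytokine and cytokine receptor genes were kept. Below control were 3 in the early window (median -0.36) and 4 in the late window (median -0.14). Of all kept genes 49.6% and 45.4% were above control. The receptor gene il13ra2, which in mammals encodes a decoy receptor of interleukin-13, was at -0.52 and -0.65, and it passed the filter only through its control reading (7.22, against 6.70 and 6.57). The growth hormone receptor gene ghrb was at -0.49 and -0.51 and the hormone gene gh1 at -0.36 and -0.14. The early-window median of this list turned to 0.02 without the filter and to 0.14 on the spike-in scale. Among Jak and Stat genes 4 of 5 were kept and all stayed within 0.29 of control. These were stat3, jak1, stat5a (0.13 and 0.29) and jak2b (0.00 and 0.07).

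Among the inhibitors of the pathway, 11 of 16 measured genes of the SOCS, PIAS and phosphatase list were kept. After early exposure 3 were above and 8 below control (median -0.04, or 0.46 on the spike-in scale). Of all kept genes 49.6% were above control. Only socs3b was past 1.5-fold, against 0.401% of kept genes at least 1.5-fold higher. Genes of the same family below control on the deposited scale were socs1a and cisha, whereas socs3a was at 0.03. For socs1a, an inhibitor of interferon signalling, the early-window difference was -0.44 and the late-window difference -0.09, and its second bright probe set read -0.40 and -0.26. For cisha, an inhibitor of Stat5 signalling, it was -0.44 and 0.02, and for the phosphatase gene ptpn11b -0.41 and -0.15. In the late window 5 of the 11 were above control (median -0.02), against 45.4% of kept genes.

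The list of Stat3-linked and acute-phase genes had 27 of 31 measured genes kept. In the early window 21 were above control, where 49.6% of all kept genes were, and 11 were at least 1.5-fold higher, against 0.401%. None was at least 1.5-fold lower. The list includes socs3a and socs3b, and socs3b is 1 of the 11. Without both, 19 of 25 were above control and 10 at least 1.5-fold higher. The median of the list was 0.12, or 0.62 on the spike-in scale. In the late window 16 were above control, against 45.4%, and 2 were at least 1.5-fold higher, against 1.11%. The list had been written with the early-window differences of several of its genes known, so its count is no independent evidence. Leading it were hpxa, hemopexin, a heme-binding plasma protein that passed the filter only through the exposed arrays (1.99 and 0.58), mmp9 (1.38 and 0.54) and mmp13a (1.16 and 0.92). Added here outside the naming rule, the acute-phase genes crp (-0.05) and hp (0.02) were near control in the early window. So was saa (-0.004), which was under the filter. On the late-window array mmp13a and crp3, a C-reactive protein gene added to complete the count (0.87), were past 1.5-fold. Between the exposed arrays 20 of the 27 were lower in the late window, against 53.7% of kept genes, and socs3a and socs3b were among them.

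**Figure D4:**
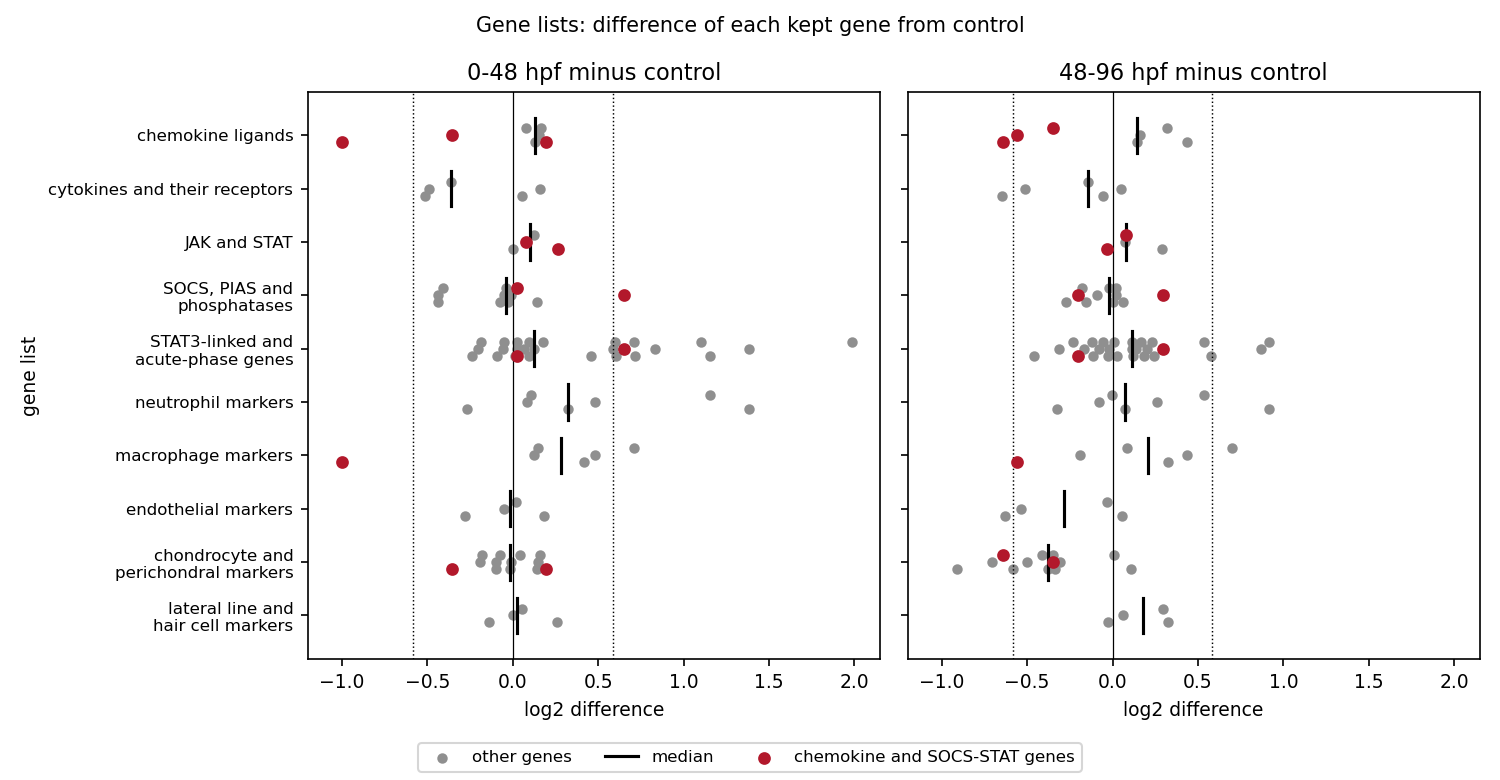
Log2 difference from control (x axis) of each kept gene in the 10 gene lists with at least 3 kept genes (y axis), for the 0-48 hpf array (left) and the 48-96 hpf array (right). Red points are genes of the chemokine and SOCS-STAT group, grey points the other genes, black bars the list medians and dotted lines 1.5-fold. In the left panel 11 Stat3-linked and acute-phase genes lie right of the 1.5-fold line. In the right panel the Cxcl12 ligands lie among the low chondrocyte and perichondral markers, a list that was written to include them.

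Marker genes of cells that produce or receive these signals were read from the same arrays. Of 9 measured neutrophil markers 7 were above control after early exposure and 5 after late exposure, with medians of 0.32 and 0.08. Of all 8793 genes 49.1% and 51.9% were above control. The mean level of the 7 kept neutrophil markers was 9.10 on control, 9.57 on the early-window and 9.30 on the late-window array. These included mmp9 and mmp13a, which other cells also make, and without both the other 5 differed from control by 0.14 on average after early and by -0.01 after late exposure. Of these 5, mpx, the myeloperoxidase of neutrophil granules, was at 0.48 and 0.26 and lyz at 0.32 and -0.32. Named here to complete the average, the others were cebpa (0.10 and 0.08), nccrp1 (0.08 and -0.08) and cpa5 (-0.27 and -0.01), which read 13.17 on control. Like mmp9 and mmp13a, these others are not confined to neutrophils. The average thus describes the listed genes and is no measure of neutrophils. Another mpx probe set was at 0.26 and -0.22. It read 7.03, 7.28 and 6.81 on the control, early-window and late-window arrays and passed the filter only through the early-window array. Of 15 measured macrophage markers other than ccl34b.1, 10 were above and 5 below control in each window. Beside them 49.1% and 51.9% of all 8793 genes were above control. The medians of the 15 were 0.09 and 0.09. The lowest was cd74b, at -0.41 and -0.38 and under the filter. Of the 15, 5 were kept, and ctss2.1 and coro1a among them, like mpx above, passed only through the exposed arrays. The mean levels of the 5 were 8.24, 8.61 and 8.51, and the genes furthest from control were ctss2.1, a cathepsin (0.71 and 0.70), lcp1, the leukocyte plastin (0.48 and -0.19), and apoeb (0.15 and 0.43). These means, too, describe the listed genes and are no measure of macrophages. The filter favours a rise in them, because ctss2.1 and coro1a were kept only through the exposed arrays. The macrophage receptor gene csf1ra, marco, spi1b and ptprc were under the filter. The part of these cells in the differences of cxcr4a, socs3b and ccl34b.1 was not tested.

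Of 13 measured chondrocyte and perichondral markers other than the Cxcl12 ligands, 11 were kept. In the late window 2 were above and 9 below control (median -0.38), where 45.4% of all kept genes were above. Among the 9 were hapln1a (-0.91), sox9b (-0.71) and col9a3 (-0.58). The other hapln1a probe sets that passed the filter read -0.66 and -0.50 in the late window. Dim probe sets under the filter did not share the sign, with sox9b at 0.41 and hapln1a at up to 0.18. In the early window the median of the 11 markers was -0.02, or 0.48 on the spike-in scale with cxcl12a and cxcl12b included. Their mean level was 10.52 on control, 10.50 on the early-window and 10.12 on the late-window array. The Cxcl12 ligands were low on the same array, and the part of these cells in that was not tested.

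Of 7 measured endothelial markers other than cxcr4a, 3 were above and 4 below control in each window. Beside them 49.1% and 51.9% of all 8793 genes were above control. The medians of the 7 were -0.00082 and -0.04. The 4 kept ones had medians of -0.02 in the early window, or 0.49 on the spike-in scale, and -0.29 in the late window. They were plvapb at 0.02 and -0.63, notch3 at -0.28 and -0.53, tie1 at 0.18 and 0.06, and kdrl at -0.05 and -0.04. Of these, kdrl was named to complete the list, and notch3 is not confined to endothelium. The mean levels of the 4 were 8.44, 8.40 and 8.15. The part of endothelial cells in the difference of cxcr4a was not tested. Of 9 measured lateral line and hair cell markers other than cxcr4b, 5 were above control in the early window and 7 in the late window. Of all 8793 genes 49.1% and 51.9% were. The medians of the 9 were 0.001 and 0.06, and those of the 4 kept ones 0.03 and 0.18. The kept ones included eya1 (0.26 and 0.33), pvalb8 (0.00 and 0.30) and sox2 (-0.14 and 0.06). Of 5 measured lymphocyte markers 1 was kept, runx3, named to complete the list, at -0.09 and 0.07.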

How the data were processed

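Whole-larva total RNA of 3 groups was measured on an Affymetrix zebrafish array, 1 array per group. The authors deposited log2 values from RMA (robust multi-array average), as the submitters' processing notes name it. RMA corrects background, equalises the intensity distributions of the arrays and fits 1 value per probe set. No source used here names the RMA software. The deposited log2 values were analysed as they are.

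Gene symbols came from the 2016 platform annotation: 10802 of 15617 carried 1 gene symbol, 135 several and 4680 none. Through Entrez IDs, 10718 of the former were found among the RefSeq genes of GRCz12tu, and 1 symbol was brought up to date. No other genome build is named in the sources used here, and no coordinates are given. A gene was represented by its probe set with the highest mean and kept if any array put it at 7.21 (the overall median) or above.

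A single array per group leaves no replicate spread, and therefore no test or p-value. Genes at least 1.5-fold apart were counted among the members and among all kept genes, after the counting step had been tested on simulated data. The number of arrays, not depth, limits the precision. Alternatives were median centring, a second quantile normalization, scaling on the spike-ins, the mean over probe sets, leaving out cross-hybridising probe sets, dropping the filter, raising it to the 75th percentile, and 2-fold. Scaling the gene lists on the spike-ins was added after the data were seen. A search of promoter motifs was planned and not run, because no sequences were used here.

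The 10 genes, the 13 gene lists, the fold counted and the rule for named genes were chosen with earlier results of these data known. The rule named all 10 genes. One listed gene and 1 gene list are not reported here. From each list with at least 3 kept genes it took the 3 others furthest from control in either window, or as many as there were. For each member at least 1.5-fold apart in any comparison it took the 3 kept genes, other than clone names, whose pair of differences from control lay nearest. Calculations used Python 3.11.15, pandas 2.3.3 and numpy 2.4.6.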

Additional observations from a re-analysis of the deposited data

Results flagged for a closer look

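For 3 of the 7 kept genes the difference from control had opposite signs in the early and late windows, each on 1 array, so the difference between windows was not tested. The late-minus-early value was -0.54 for cxcl12a, -0.23 for socs3a and -0.11 for stat3. Only for cxcl12a did both differences from control (0.19 and -0.35) exceed the spread between probe sets of a gene, and its second probe set did not share the sign in the early window. For stat3 both were smaller than that spread, and for socs3a the early-window difference (0.03) was. On the spike-in scale the early-window differences of these genes were 0.69, 0.53 and 0.58. How many of all kept genes had such opposite signs was not counted, so the 3 of 7 cannot be set against the array. After early exposure 49.6% of all kept genes were above control, and after late exposure 45.4%.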

How the results depend on the processing

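No paired analysis was possible because each group is 1 array and the labels number no replicates, and no replicate could be left out. Under median centring, the second quantile normalization, averaged probe sets and the omission of cross-hybridising probe sets, the counts of members at least 1.5-fold apart stayed at 2 (early window), 1 (late window) and 0 (between the windows). With the filter at the 75th percentile, which keeps 4 members, the first 2 counts were 1 and 0, and at 2-fold both were 0. Without the filter the early-window count was 3 and the late-window count 2, because cxcr4a entered both. On the spike-in scale the early-window count was 3 (cxcl12a, jak1 and socs3b, all higher, with socs3b past 2-fold) and the count between windows was 6. Of 135 recomputed member differences 18 moved by more than the spread between probe sets of a gene, all on the spike-in scale. The 27 from the omission of cross-hybridising probe sets could not move, because none of those probe sets reads a member. Averaging could move only cxcl12a, the 1 member with 2 probe sets. On the spike-in scale the sign of some differences changed. It turned for cxcl12b in the early window, and for ccl34b.1 and cxcr4b between the windows (-0.07 and -0.13). Of 120 recomputed list medians 21 moved by more than that spread, 10 of them on the spike-in scale and 7 with the stricter filter, which keeps fewer genes. Which scaling is right was not tested. Signal near the tag controls limits cxcr4b and the control reading of cxcr4a.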

Other observations

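The chemokine gene ccl27a, a relative of the mammalian skin chemokine CCL27, was under the filter and was noticed after its value was seen. It read 5.19 in control larvae, 5.16 after early and 6.55 after late exposure, a difference of 1.36 from control in the late window. The highest tag control on that array read 6.33.

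The mpx probe sets disagreed. A further probe set read 4.22 in control larvae, 4.41 after early and 6.07 after late exposure, a difference of 1.85. The probe sets that passed the filter differed by 0.26 and -0.22 in the late window. All readings of the further probe set lie below the highest tag control of their array, 6.33 on the late-window array. They are not read as expression.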
